A study of Mus musculus with 8 samples.

Results

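Major histocompatibility complex (MHC) transcripts were examined in liver from male mice aged 13 weeks, 4 wild type and 4 Bgn knockout. Bgn encodes biglycan, a proteoglycan of the extracellular matrix. All mice had a C57BL/6 strain background per the labels, and each mouse gave 1 Illumina bead array of total liver RNA. The labels do not state which part of Bgn was removed or how the wild type mice were related to the knockout mice. The comparison asked how liver transcript levels differed between these genotypes. Members were all probes whose gene symbol starts with H2-, the name of the mouse MHC, or is B2m, Tap1, Tap2, Tapbp, Cd74 or Ciita. They came to 53 of the 25697 probes on the array, and to 41 of its 16593 named genes. Of these, 31 probes of 24 genes belonged to class I, 16 probes of 12 genes to class II and 4 probes to the peptide loading genes Tap1, Tap2 and Tapbp. The remaining 2 probes, of H2-Bl and H2-Ke6, were put in neither class.

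MHC class I molecules carry peptides made in the cytosol to the surface of nearly all nucleated cells, where CD8 T cells read them. They consist of a heavy chain and the light chain encoded by B2m, and the Tap transporter and tapasin (Tapbp) load them in the endoplasmic reticulum. Class II molecules carry peptides from endosomes to CD4 T cells and are made mostly by dendritic cells, B cells and macrophages. Their chains travel with the invariant chain Cd74, H2-DM exchanges the peptide, and the transactivator Ciita switches on the whole set. In liver, hepatocytes carry class I at a modest level, while class II lies mainly on Kupffer cells, dendritic cells and B cells.

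Arrays had median deposited signals of 141.3 to 163.9 units. Between 11352 and 11910 probes were detected on an array, meaning a detection p-value under 0.05. Bgn, the targeted gene, read 2901 to 4944 units on the wild type arrays and 169 to 203.5 on the knockout arrays. The hepatocyte markers Ttr and Hnf4a were bright on every array, with log2 intensities of 14.85 to 15.08 and 12.10 to 12.60, while the probe of Alb, the albumin gene, read only 6.91 to 8.03. Skeletal muscle genes stood apart on 3 arrays: Acta1, the muscle actin, reached 13.38 (log2) on wild type replicate 4, 11.77 on knockout replicate 1 and 13.89 on knockout replicate 2, against 4.44 to 5.02 elsewhere. Values below are log2 intensities after background correction and quantile normalization, and differences are knockout minus wild type on that scale. A probe was tested if it was detected on at least 4 of the 8 arrays. That left 11494 probes, of which 127 changed between the genotypes at a limma adjusted p under 0.05 (1.1%). Among the 53 member probes, 28 of 20 genes passed this filter, 14 were detected on no array, and the other 11 were detected on 1 to 3 arrays.

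None of the 28 tested member probes changed between the genotypes in limma, where the smallest adjusted p was 0.305, against 1.1% of all tested probes. At an unadjusted p under 0.05, 1 of the 28 stood out, an H2-T23 probe, against 13.3% of all tested probes. For 0 of the 28 did the 2 groups of arrays separate without overlap, against 8.07% of all tested probes. The class I probes centred on no difference, with a median of 0.028 over 12 tested probes. The class II probes had a median of -0.51 over 10 tested probes, and all 10 values were below 0, while the median over all tested probes was 0.005. The probes of a gene, and class II genes that vary together, are not independent readings of the genotype. In these whole-liver samples, fewer cells of a type and less RNA per cell cannot be told apart.

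**Figure D1:**
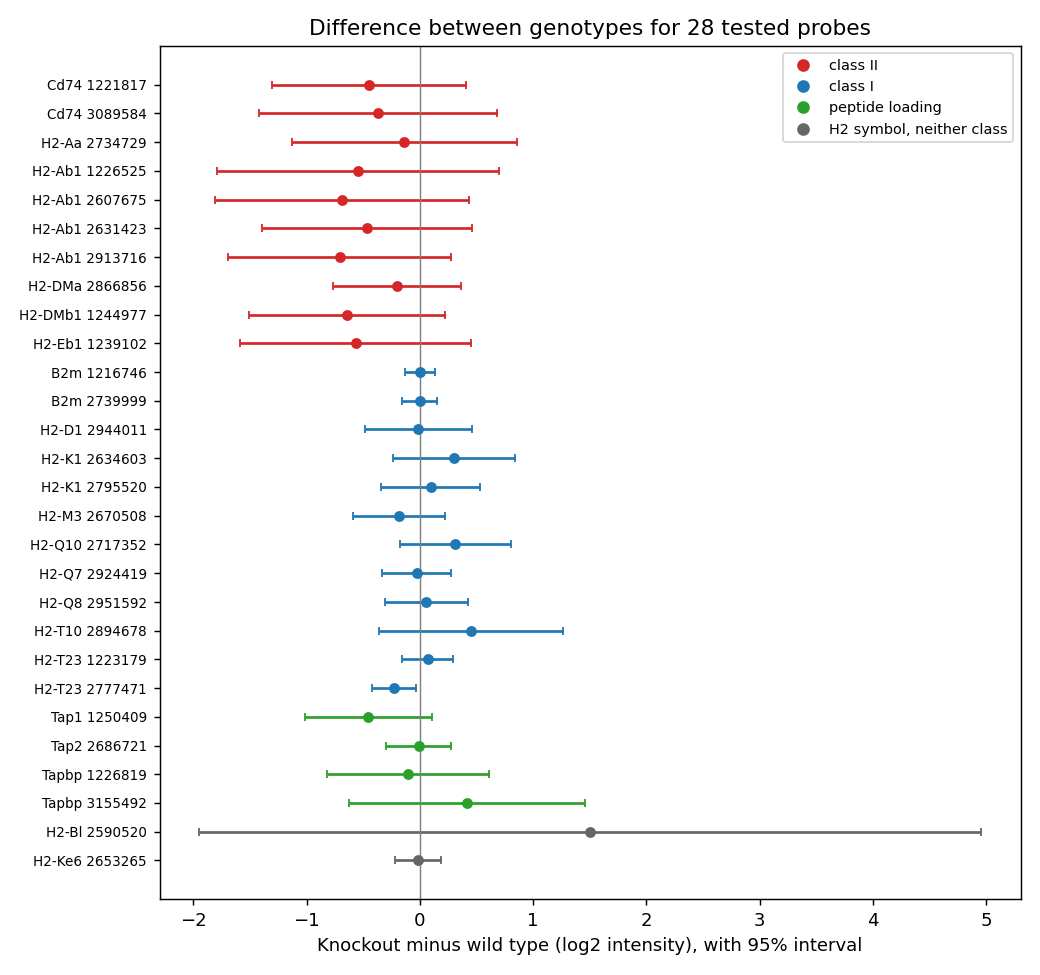
Difference in log2 intensity between Bgn knockout and wild type liver (x axis) for each tested member probe, named by gene and probe number (y axis); points are limma estimates from 4 arrays a genotype and bars are 95% intervals. All 10 class II points lie below 0, from -0.71 to -0.14, with intervals that span 0, and the B2m intervals are narrow.

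No class II probe passed the test between the genotypes, and the spread between mice of a genotype was wide. Cd74, the invariant chain, illustrates this on its brighter probe (ILMN_3089584). Its log2 intensity was 10.03, 10.18, 11.34 and 11.73 on wild type replicates 1 to 4, and 10.98, 10.19, 10.70 and 9.93 on knockout replicates 1 to 4. Wild type replicates 3 and 4 were the highest, the other wild type arrays lay within the range of the knockout arrays, and the groups overlapped. The difference was -0.37 (SE 0.45; 95% interval -1.42 to 0.68; limma adjusted p = 0.777). The second Cd74 probe gave -0.45 (SE 0.37).

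H2-Ab1 and H2-Aa encode the beta and alpha chains of the I-A molecule, the class II molecule displayed by C57BL/6 mice. On the brightest of its 4 probes (ILMN_1226525), H2-Ab1 read 9.60, 9.18, 10.94 and 11.19 on wild type replicates 1 to 4 and 10.06, 9.52, 10.16 and 8.99 on the knockout arrays. The span from the lowest to the highest array was 4.60-fold, and the ends of the order were the same arrays as for Cd74, wild type replicate 4 at the top and knockout replicate 4 at the bottom. The difference was -0.54 (SE 0.52; 95% interval -1.79 to 0.70; limma adjusted p = 0.709). Its other probes gave -0.69, -0.47 and -0.71, none past the threshold.

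H2-Aa had log2 intensities of 7.03, 6.86, 8.41 and 8.82 on wild type replicates 1 to 4 and of 7.86, 7.45, 7.86 and 7.42 on the knockout arrays. Here the knockout arrays were close together (SD 0.24), inside a wild type spread of 0.98 (SD, n = 4 each). The difference was -0.14 (SE 0.43; limma adjusted p = 0.926), and it was 0.075 without wild type replicate 3 and 0.21 without wild type replicate 4.

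H2-Eb1, the beta chain of the I-E molecule, read 8.09, 7.73, 9.46 and 9.50 in wild type livers and 8.40, 8.05, 8.48 and 7.57 in knockout livers. Again wild type replicates 3 and 4 stood above all other arrays, with a difference between genotypes of -0.57 (SE 0.44; limma adjusted p = 0.625). Its alpha chain partner H2-Ea, which C57BL/6 mice are known not to express and which RefSeq lists as a transcribed pseudogene, was not detected on any of the 8 arrays.

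The H2-DM heterodimer, which exchanges the invariant chain fragment for antigenic peptide, was also highest on wild type replicates 3 and 4. H2-DMb1, its beta chain, had log2 intensities of 6.57, 6.20, 7.41 and 8.12 on wild type replicates 1 to 4 and 6.84, 6.12, 6.62 and 6.12 on the knockout arrays (difference -0.65, SE 0.39; limma adjusted p = 0.511). H2-DMa, its alpha chain, spanned 2.23-fold from the lowest to the highest array, the smallest span among the 10 class II probes, with a difference of -0.20 (SE 0.26). It gave 0.12 without wild type replicate 4 and knockout replicate 2. H2-Oa and H2-Ob, the chains of the inhibitor of H2-DM, were not detected on 8 and 6 of the 8 arrays.

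Ciita itself was detected on 1 array, wild type replicate 4, where its log2 intensity was 5.32. On wild type replicates 1 to 3 it read 4.79, 4.40 and 5.10, and on the knockout arrays 4.79, 4.47, 4.55 and 4.62, all not above background, so no fold is given. H2-DMb2 was likewise detected on wild type replicate 3 alone, and H2-Eb2 on no array.

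The wild type arrays with the highest levels were the same for every tested class II probe. Wild type replicates 3 and 4 were the highest arrays for all 10 probes, and the lowest array was wild type replicate 2, knockout replicate 2 or knockout replicate 4 for all 10. This way of counting was chosen after the values were seen. As a median over the 10 probes, the deviation from each probe's mean was -0.31, -0.62, 0.85 and 1.10 on wild type replicates 1 to 4. On the knockout arrays it was 0.13, -0.46, 0.0050 and -0.67. The highest and the lowest array thus differed 3.41-fold for class II. For the same median they differed 1.935-fold over the 4 peptide loading probes and 1.20-fold over the 12 class I probes. Of those 12, wild type replicates 3 and 4 were together the highest arrays for 1. The single highest array was wild type replicate 3 or 4 for 6 of the 12, and for 3 of the 4 peptide loading probes. The class II median difference of -0.51 was -0.30 without wild type replicate 3, -0.26 without wild type replicate 4, -0.82 without wild type replicate 2 and -0.14 without wild type replicate 4 and knockout replicate 2.

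**Figure D2:**
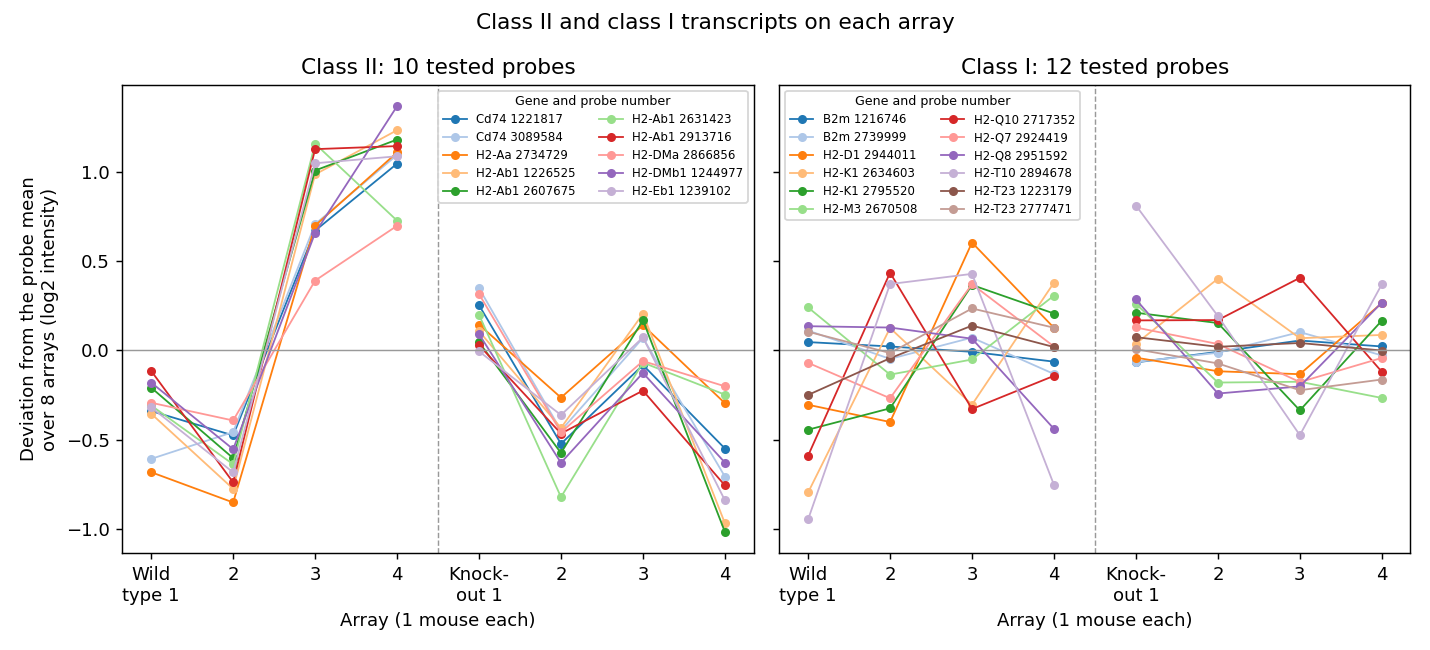
Deviation of each tested class II probe (left) and class I probe (right) from its own mean over the 8 arrays, in log2 intensity (y axis), for each mouse (x axis); 1 line per probe joins the arrays of a genotype. The class II lines run together and peak on wild type replicates 3 and 4. The class I lines do not share an order, though 6 of the 12 are highest on wild type replicate 3 or 4.

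The spread between mice of a genotype put class II near the top of the array. The residual SD of the 10 class II probes had a median of 0.70 on the log2 scale, against 0.24 over all tested probes. It was 0.25 over the class I probes and 0.49 over the 4 peptide loading probes. Ranked among all tested probes, the class II probes lay between the 89.2 and the 98.4 percentile, with a median of 97.7. The peptide loading probes lay between the 21.8 and the 98.2 percentile, with a median of 90.8. The class I probes lay anywhere from the 0.37 to the 96.9 percentile, with B2m at the bottom and the transcribed pseudogene H2-T10 at the top. H2-Bl, a class I-related gene put in neither class, lay above them all at the 99.95 percentile.

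**Figure D3:**
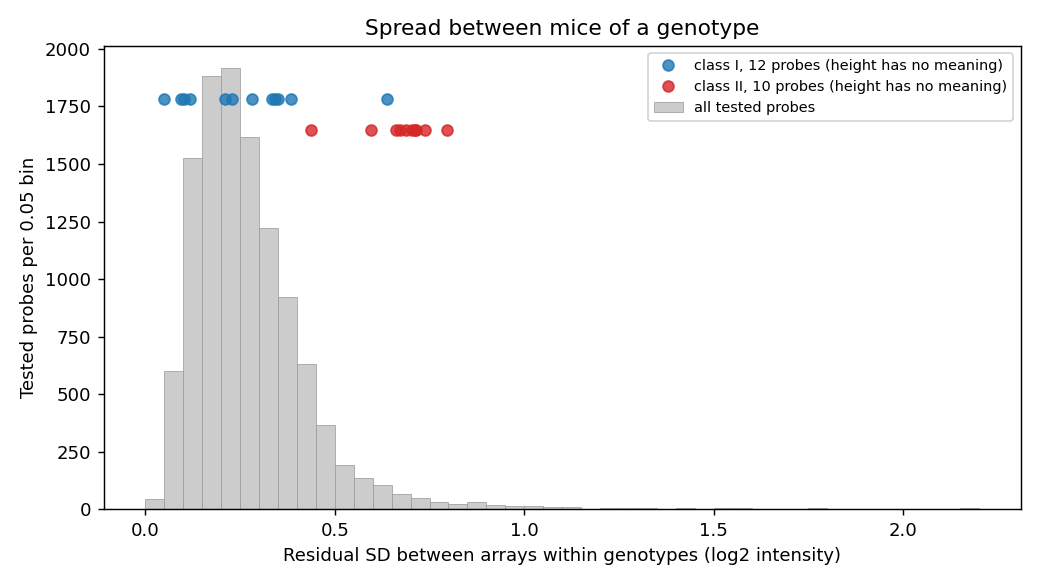
Residual SD between arrays within genotypes, in log2 intensity (x axis), for all 11494 tested probes (grey bars, probes per bin on the y axis) with the class I and class II probes drawn as points at an arbitrary height. The class II points lie in the right tail, and the class I points are spread over the whole distribution.

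The promoters of class II genes carry a conserved array of boxes, of which the X box binds the RFX complex and CREB-like factors and the Y box binds NF-Y, and Ciita docks on that assembly. The bases before the start of 3 class II genes are shown, from RefSeq (GRCm38.p6), 5′ to 3′ on the gene's strand. Capitals mark matches to 1 spelling of X box letters (CTGATGATG), a cyclic AMP element (TGACGTCA) and a Y box (TGATTGG), searched on both strands. These letters were chosen after the windows had been read.
H2-Aa, chr17:34287824-34288073, minus strand: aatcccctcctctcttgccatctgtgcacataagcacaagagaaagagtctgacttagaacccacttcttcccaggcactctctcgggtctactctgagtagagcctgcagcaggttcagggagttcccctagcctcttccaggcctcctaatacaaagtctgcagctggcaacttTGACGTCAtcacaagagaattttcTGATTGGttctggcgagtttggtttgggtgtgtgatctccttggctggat
H2-Eb1, chr17:34305617-34305866, plus strand: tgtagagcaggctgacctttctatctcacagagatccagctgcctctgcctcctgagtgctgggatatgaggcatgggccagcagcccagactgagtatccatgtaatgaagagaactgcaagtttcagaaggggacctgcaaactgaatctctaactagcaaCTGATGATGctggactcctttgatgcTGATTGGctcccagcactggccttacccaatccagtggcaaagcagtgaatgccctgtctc
H2-DMb1, chr17:34152941-34153190, plus strand: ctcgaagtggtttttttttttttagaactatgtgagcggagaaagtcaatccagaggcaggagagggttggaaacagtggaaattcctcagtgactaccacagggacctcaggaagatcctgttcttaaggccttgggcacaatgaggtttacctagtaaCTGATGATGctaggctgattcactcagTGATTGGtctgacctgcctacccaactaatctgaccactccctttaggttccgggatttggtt
These X box letters were in 2 of the 8 class II windows of 300 bases, those of H2-Eb1 and H2-DMb1. They were in 0.527% of all 32851 RefSeq windows. Other spellings of the X box were not searched, so the count does not show that H2-Aa or the other windows lack one. H2-Aa held the cyclic AMP element, which was in 1 of the 8 and in 1.79% of all windows. The Y box letters were in 7 of the 8 class II windows, in 12 of 19 class I windows and in 7.82% of all windows. No marked match overlapped another. A match of letters is a description and was not tested as a binding site or against the class II spread.

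Class I transcripts showed no difference between the genotypes past the threshold. B2m, the light chain shared by all class I molecules, was among the steadiest transcripts on the arrays after quantile normalization. On the probe ILMN_2739999 its log2 intensity was 14.59, 14.43, 14.55 and 14.34 on wild type replicates 1 to 4 and 14.41, 14.46, 14.58 and 14.45 on knockout replicates 1 to 4. The groups overlapped throughout, and the difference was -0.0015 (SE 0.072; 95% interval -0.16 to 0.16; limma adjusted p = 0.995). A second probe gave 0.0011, with an interval of -0.13 to 0.13, and one more probe of B2m was detected on no array. The size of the difference depended on the scaling. With median scaling, ILMN_2739999 gave -0.16 and the second probe -0.15, both below the intervals above. With cyclic loess scaling they gave -0.11 and -0.093, and none of these values passed the threshold. In deposited units, ILMN_2739999 read from 20263 to 26060.

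The classical heavy chains H2-K1 and H2-D1 present peptides to CD8 T cells. H2-K1, on its brighter probe (ILMN_2795520), read 8.16, 8.28, 8.97 and 8.81 on the wild type arrays and 8.82, 8.76, 8.27 and 8.77 on the knockout arrays. The groups overlapped, with a difference of 0.098 (SE 0.20; 95% interval -0.34 to 0.53; limma adjusted p = 0.876), and the dimmer probe gave 0.30 (SE 0.25). H2-D1 read 7.30, 7.20, 8.21 and 7.73 on the wild type arrays and 7.56, 7.49, 7.47 and 7.87 on the knockout arrays. Its difference was -0.013 (SE 0.22; 95% interval -0.49 to 0.46; limma adjusted p = 0.988). Class I genes are near-identical copies of each other, and probe sequences were not used here, so signal from one gene may reach another gene's probe.

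For contrast with the class II windows, the promoters of the classical class I genes are shown in the same way. Capitals mark a kappa B element (GGGATTCCC), bound by NF-kappa B, and an interferon element (TTTCACTTC), bound by interferon regulatory factors. In H2-D1 they also mark the Y box letters. The Y box letters counted for the H2-K1 window lay after the start, outside the bases shown.
H2-K1, chr17:34000348-34000597, minus strand: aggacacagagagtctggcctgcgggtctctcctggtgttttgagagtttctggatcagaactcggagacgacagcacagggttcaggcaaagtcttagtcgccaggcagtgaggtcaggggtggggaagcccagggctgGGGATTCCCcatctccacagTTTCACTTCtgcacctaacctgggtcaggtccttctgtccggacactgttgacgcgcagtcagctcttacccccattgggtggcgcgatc
H2-D1, chr17:35262844-35263093, plus strand: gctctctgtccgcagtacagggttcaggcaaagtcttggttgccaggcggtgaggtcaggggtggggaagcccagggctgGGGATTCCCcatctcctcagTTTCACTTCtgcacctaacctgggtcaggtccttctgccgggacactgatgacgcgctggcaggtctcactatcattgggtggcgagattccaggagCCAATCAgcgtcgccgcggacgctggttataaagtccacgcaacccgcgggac
The kappa B letters were in 3 of the 19 class I windows, those of H2-K1, H2-D1 and H2-Q7, in 0 of the 8 class II windows and in 0.353% of all windows. The interferon element was in 5 of the 19 class I windows, these and those of H2-Q10 and H2-M3, in 0 of the 8 class II windows and in 0.505% of all windows.

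Among non-classical class I genes, H2-T23 gave the smallest p of all members. It encodes a heavy chain that inhibitory receptors of NK cells recognise. On its brighter probe (ILMN_2777471) the log2 intensity was 12.50, 12.39, 12.64 and 12.53 in wild type livers and 12.41, 12.33, 12.18 and 12.24 in knockout livers. Wild type replicate 2 lay below knockout replicate 1, so the groups overlapped, and the difference of -0.23 (SE 0.089; 95% interval -0.42 to -0.031) had an unadjusted p of 0.0264 and a limma adjusted p of 0.305. The second H2-T23 probe gave a value of opposite sign, 0.068 (SE 0.10).

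H2-Q10, a soluble class I protein secreted by hepatocytes, had a difference of 0.31 (SE 0.23; limma adjusted p = 0.583). H2-Q7 and H2-Q8, of the membrane-anchored Q family, had differences of -0.028 (SE 0.14) and 0.055 (SE 0.17). H2-M3, which presents formylated bacterial peptides, had -0.18 (SE 0.19), and H2-T10 had 0.45 (SE 0.37) with detection on 2 of 4 wild type and 4 of 4 knockout arrays. The 18 untested probes of class I heavy chains were at or near background. Of them, 10 were detected on no array, among them probes of H2-M1, H2-M10.5, H2-T3 and H2-T24. H2-Q5, a transcribed pseudogene, was detected on 3 wild type and 0 knockout arrays, with log2 intensities of 5.35, 4.66, 5.42 and 5.12 against 4.79, 4.92, 4.95 and 5.0001. The 3 detected wild type values lay above the knockout values, and wild type replicate 2, not detected, lay below them. No fold is given against the knockout arrays, none of which was above background.

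The peptide loading genes did not pass the threshold either. Tap1, one subunit of the peptide transporter, read 6.55, 6.04, 6.80 and 6.88 on wild type replicates 1 to 4 and 6.42, 6.17, 6.39 and 5.47 on the knockout arrays. Knockout replicate 4 was the lowest and the other 7 arrays overlapped (difference -0.45, SE 0.26; 95% interval -1.01 to 0.10; limma adjusted p = 0.476). Tap2, the other subunit, was steadier, with 9.04, 9.17, 9.18 and 8.75 against 9.07, 9.10, 9.06 and 8.88. Its difference was -0.0080 (SE 0.13; 95% interval -0.29 to 0.28; limma adjusted p = 0.987).

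Tapbp, which bridges the transporter and the empty class I molecule, gave values of opposite sign on its probes. On ILMN_3155492 it read 6.78, 7.16, 7.72 and 5.42 in wild type livers and 7.29, 6.70, 7.02 and 7.74 in knockout livers (difference 0.42, SE 0.46; limma adjusted p = 0.745). The other probe gave -0.10 (SE 0.32). These signs depended on single arrays. Without wild type replicate 4, ILMN_3155492 gave -0.033 and the other probe -0.26. Without wild type replicate 3 they gave 0.73 and 0.14.

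H2-Bl, a class I-related gene that RefSeq lists as a transcribed pseudogene, varied most of all members. Its log2 intensity was 5.01, 9.22, 9.82 and 4.69 on wild type replicates 1 to 4 and 9.13, 6.98, 9.25 and 9.38 on knockout replicates 1 to 4. Wild type replicates 1 and 4 were not above background, knockout replicate 2 lay in between, and the other 5 arrays were close together. In deposited intensity units, the same contrast ran from 143.1 on wild type replicate 1 to 1021 on wild type replicate 3. The residual SD of 2.08 was at the 99.95 percentile of all tested probes, and the difference between genotypes was 1.502 (SE 1.43; 95% interval -1.95 to 4.96; limma adjusted p = 0.709). H2-Ke6, which lies in the MHC region and encodes a steroid dehydrogenase, had a difference of -0.017 (SE 0.093).

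Genes of the pathway outside the H2 set held a few changes. Of 15 further class I pathway genes, 13 were tested on 16 probes, of which 1 was lower and 0 higher (1.1% of all tested probes changed). The lower one was Cd1d1, a B2m-associated molecule that presents lipids to NKT cells. Its log2 intensity was 12.05, 11.56, 12.10 and 12.23 on wild type replicates 1 to 4 and 11.09, 11.02, 10.82 and 10.86 on the knockout arrays. The groups did not overlap, which held for 8.07% of all tested probes. Cd1d1 fell by 1.04 (SE 0.14; limma adjusted p = 0.0028), a call that held in all 19 alternatives. Nlrc5, the class I transactivator, did not pass: it read 7.16, 7.29, 7.82 and 7.72 in wild type and 6.67, 6.80, 6.90 and 6.53 in knockout livers (difference -0.78, SE 0.19; limma adjusted p = 0.082). Nlrc5 was named after its values were seen. Erap1, which trims peptides in the endoplasmic reticulum, was detected on the 4 knockout arrays and on 0 wild type arrays, so it entered the test only through the knockout group. It read 5.30, 6.06, 5.57 and 6.11 on the knockout arrays, at least 1.51-fold above the wild type arrays, which were not above background and were bounded by the lowest detected signal of each array (limma adjusted p = 0.0923). The immunoproteasome genes Psmb8 and Psmb9 had differences of -0.27 and -0.0093, and the brighter and dimmer probe of Psmb10 gave -0.070 and -0.30, none past the threshold. Erap1 and these genes were also named after their values were seen.

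In the class II pathway, 9 of 13 listed genes were tested on 10 probes, of which 1 was higher and 0 lower. Of all tested probes, 1.1% changed, and the groups did not overlap for 8.07%. Ctsl, a cathepsin that degrades the invariant chain in some cells, read 6.95, 7.18, 6.91 and 6.65 on the wild type arrays and 7.68, 7.61, 7.96 and 8.20 on the knockout arrays. The groups did not overlap, and it rose by 0.94 (SE 0.18; limma adjusted p = 0.0281), but the call was lost in 7 of the 8 fits that left out 1 array (adjusted p up to 0.0947). Ctss, the cathepsin that does this in dendritic cells and B cells, had a difference of 0.18 (SE 0.22).

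Of 7 genes of interferon control, 6 were tested on 12 probes, of which 1 was lower and 0 higher (1.1% of all tested probes changed). That probe belonged to Irf1, a transcription factor that drives class I genes and Ciita in response to interferon-gamma. It read 9.27, 9.32, 9.74 and 9.74 in wild type livers and 9.02, 8.39, 8.41 and 8.02 in knockout livers, without overlap (difference -1.06, SE 0.20; limma adjusted p = 0.0287). The call was lost in 5 of the 8 fits that left out 1 array (adjusted p up to 0.117). The other tested Irf1 probes gave -0.85, -0.64 and -0.59 without passing.

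**Figure D4:**
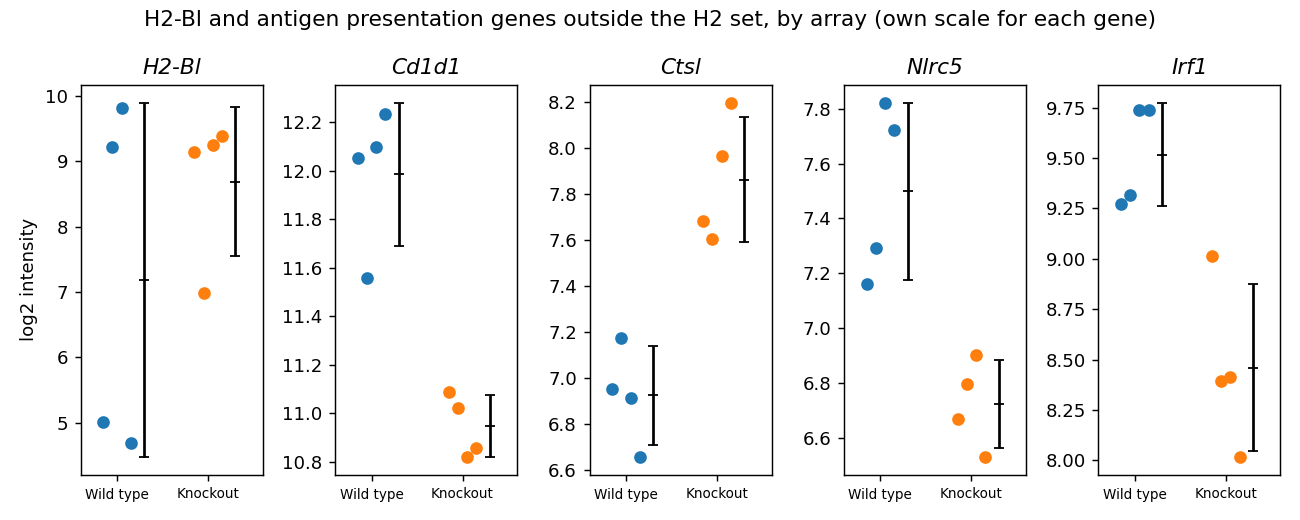
Log2 intensity (y axis, own scale for each gene) of H2-Bl and of Cd1d1, Ctsl, Nlrc5 and Irf1 (probe ILMN_2599782) on each array; points are mice, and the black bars beside them give the mean and SD of 4 arrays. The wild type H2-Bl points form 2 levels, while the genotypes do not overlap for the other genes, as for 8.07% of all tested probes. Nlrc5 was picked after its values were seen.

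Markers of the cell types that carry class II, and of T cells, were set beside these values. For Kupffer cells and macrophages, 9 of 12 listed genes were tested and 0 changed, against 1.1% of all tested probes. Cd5l was not detected on any array. Their summed linear signal was 4035, 4641, 3717 and 5160 units on wild type replicates 1 to 4 and 4157, 2849, 3569 and 4386 on the knockout arrays. It was highest on wild type replicate 4, which was high in class II, and lowest on knockout replicate 2, which was low in class II. The next highest sums, 4641 and 4386, were on wild type replicate 2 and knockout replicate 4. Those arrays were the lowest in class II, with median deviations of -0.62 and -0.67. Wild type replicate 3, also high in class II, had the lowest sum of the wild type arrays, while by the median deviation over the 9 genes (-0.085, 0.17, -0.015 and 0.47 on wild type replicates 1 to 4) it lay above replicate 1. The bright genes Clec4f and Vsig4 weigh most in the sum. For dendritic cells, 1 of 8 genes was tested, Zbtb46, with a summed level of 34.7 to 41.5 in wild type and 28.7 to 42.5 in knockout, and Itgax, Flt3, Xcr1, Cd209a and Clec9a were not detected. For B cells, 1 of 6 was tested, Cd79b, with 49.2 to 56.7 against 42.0 to 81.4 units, and Cd79a, Ms4a1 and Pax5 were not detected. For T cells, 2 of 7 were tested, with 87.3, 72.2, 131.8 and 155.0 units on wild type replicates 1 to 4 and 125.4, 80.0, 102.6 and 149.9 on the knockout arrays, and Cd4 and Cd8a were not detected. That sum, over Cd3e and Cd3g, was highest on wild type replicate 4 and next highest on knockout replicate 4, the lowest array for the class II median. Cd3d and Cd8b1, detected on 3 and 2 arrays and not tested, were highest on wild type replicate 4 (6.93 and 7.24) and next on wild type replicate 3 (5.40 and 5.31). On knockout replicate 4 they read 5.15 and 5.17, and on the remaining arrays from 4.84 to 5.12. The part of these cell types in the class II spread was not tested.

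The NK cell, neutrophil and sinusoidal endothelium lists had 0 changed genes among 2, 2 and 6 tested. The cholangiocyte, stellate cell and hepatocyte lists had 0 among 2, 5 and 5, where 1.1% of all tested probes changed. Prf1, an NK cell gene that encodes perforin, was highest on wild type replicate 4, at 8.04. It read 6.62 to 7.18 on the other wild type arrays and 6.06 to 6.79 on the knockout arrays. Prf1 was named after its values were seen, and the other NK cell genes did not share this peak. Klrb1c was highest on wild type replicate 2, at 5.35 against 5.13 on wild type replicate 4. Nkg7, not tested, read 5.535 and 5.527 on knockout replicates 4 and 2 and 5.195 on wild type replicate 4. Ncr1 and Gzma were not detected. Wild type replicate 4 was high in muscle genes as well as in class II. Wild type replicate 3, also high in class II, and knockout replicate 2, low in class II, were not alike in muscle genes: Acta1 read 4.77 and 13.89 on them. Knockout replicate 1, where Acta1 read 11.77, came next in class II after wild type replicates 3 and 4, with a median deviation of 0.13. A relation of muscle genes to the class II spread was not tested.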

How the data were processed

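Total liver RNA from each mouse was hybridised to an Illumina bead array, as the labels say. The deposited table used here holds, per the file headers, non-normalized intensity values with their detection p-values, by probe and array, and its columns were matched to samples through the sample descriptions. Intensities on a linear scale that the authors had normalized and deposited served as an alternative. Their normalization method was not given in the sources used here. Tools listed in the submitters' processing notes are lumi 2.10.0 and R 2.15.0, without a role.

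Intensities were background-corrected (background estimated from the detection p-values), quantile normalized and log2-transformed with neqc (offset 16) in limma 3.58.1 (R 4.3.3), and figures drawn with matplotlib 3.10.9. Probes detected (p under 0.05) on at least 4 arrays were compared with lmFit and eBayes (trend, robust), with Benjamini-Hochberg adjustment across the 11494 tested probes and a threshold of 0.05. P-values weigh the difference between the genotypes against the spread between mice of a genotype. Probe genes came from GEO's platform table: 23978 probes had 1 symbol, 1719 none and 0 several, and all 53 member probes matched a RefSeq gene (GRCm38.p6) with 0 symbols changed. Of 41 member genes, 30 had a RefSeq promoter window (250 bases before to 50 after the start). The fit was tested on simulated data.

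The members and lists were chosen with earlier results of these data known. The main members, every other member probe with an unadjusted p under 0.05, and changed or leading genes of the further lists are named; exceptions are stated. Alternatives were the background correction, scaling, filter, variance model, array weights, the replicate block and leaving out arrays. The number of arrays limits the precision.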

Additional observations from a re-analysis of the deposited data

Results flagged for a closer look

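In groups of 4 arrays, an array was singled out where its gap to the nearest of the others, divided by the range of the group, exceeded Dixon's critical value. Chance gives about 1 such group in 20. Of 72 groups checked, over tested members and the named pathway genes, 4 met this, against 3.6 expected by chance. H2-Bl read 6.98 on knockout replicate 2 (others 9.13 to 9.38). H2-K1 read 8.27 on knockout replicate 3 on its brighter probe (others 8.76 to 8.82) and 6.56 on knockout replicate 2 on its dimmer probe (others 6.19 to 6.24). H2-Q8 read 9.92 on wild type replicate 4 (others 10.43 to 10.50).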

How the results depend on the processing

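Over all alternatives, 527 values of tested member probes were refitted and 0 passed the threshold (smallest limma adjusted p 0.196), so the counts of changed class I, class II and peptide loading probes remained at 0. The class II probes had values below 0 in 172 of 180 refits (the fit with no filter on dim probes not counted), ranging from -1.08 to 0.27, and the 8 values above 0 belonged to H2-Aa, H2-DMa and Cd74. The class II median ranged from -0.82 to -0.26 when 1 array was left out, and was -0.15 with array weights and -0.33 with no filter on dim probes. The class I median ranged from 0.00040 to 0.11 when 1 array was left out and was -0.00020 with detection required on all 8 arrays. Over all tested probes, 197 changed with array weights, 64 with the replicate block, 48 without wild type replicate 4 and knockout replicate 2, and 59 to 121 without 1 array. Same-numbered arrays of the genotypes did not deviate together (correlations from -0.30 to 0.057). No pairing by number was seen, which does not show that the mice were unpaired. Under the block, Ctsl and Irf1 lost their calls (limma adjusted p 0.142 and 0.135). Without wild type replicate 4 and knockout replicate 2 they lost them too (0.102 and 0.272), and Irf1 also with median scaling (0.122), array weights (0.0559) and eBayes without trend and robust variance (0.069). Dim probes such as that of Ciita are limited by signal over background.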

Other observations

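H2-T10, a transcribed pseudogene like H2-Bl, had its lowest values on the same arrays as H2-Bl. Its log2 intensity was 4.76, 6.08, 6.13 and 4.95 on wild type replicates 1 to 4 and 6.52, 5.90, 5.23 and 6.07 on knockout replicates 1 to 4. Wild type replicates 1 and 4, at background for H2-Bl, were also the lowest arrays for H2-T10, but knockout replicate 3, among the 5 high arrays for H2-Bl, was low for H2-T10. The pair was picked after the values were seen. H2-Ob was detected on 2 of the 8 arrays, knockout replicates 1 and 2, at 5.26 and 5.24, against 4.40 to 4.61 on the other arrays. Lyve1, a receptor of sinusoidal and lymphatic endothelium, read 7.04, 6.39, 7.33 and 7.49 on wild type replicates 1 to 4. On the knockout arrays it read 6.51, 6.04, 6.03 and 5.66, a difference of -1.003 that did not pass (limma adjusted p = 0.104). Lyve1 was picked after its values were seen, and the other tested genes of the sinusoidal endothelium list differed in sign. Stab1 gave -0.32 and Stab2 -0.17, while Clec4g gave 0.26, Oit3 0.16 and Pecam1 0.011.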
